A study of Mus musculus with 16 samples.

Results

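The guidance genes described here encode the semaphorins and their plexin and neuropilin receptors, the ephrins and their Eph receptors, the Slits and their Robo receptors, and the netrins with Dcc, Neo1 and the Unc5 receptors. They were chosen by symbol in the array's platform annotation, which gave 64 genes of the 19057 symbols on the array, measured by 169 probes of 45281. Ntn1, Ephb2, Robo3 and Sema5b had no probe by symbol and were not read. RNA of definitive endoderm (DE) cultures was read on 16 Illumina BeadChip arrays (Mouse WG-6 v2), 1 per culture and 4 per group. The groups were Lhx1-null cultures at day 5, wild-type (Lhx1+/+) cultures at day 5, Lhx1-null cultures at day 6 and wild-type cultures at day 6. All cultures came from embryonic stem (ES) cell lines that the authors derived from blastocysts of an intercross of mice heterozygous for a deleted Lhx1 allele, and all were grown in N2B27 medium with Activin-A and EGF, the null and the wild-type cultures alike. The series' design text gives 4 null and 4 wild-type clones, and the study's methods count independent lines as biological replicates. The labels do not tie a replicate number to a clone, and the descriptions of null day 6 replicates 3 and 4 repeat the number of replicate 2, so the numbers of the titles are used. The p-values below measure the spread between these cultures.

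Guidance molecules were named for steering growing axons, but the same families control adhesion, repulsion and migration in many tissues. Semaphorins signal through plexins, with neuropilins as co-receptors for the secreted class. Ephrins and Ephs are both held in membranes and signal between touching cells, in both directions. Slits signal through Robos, and netrins attract or repel through Dcc, Neo1 and the Unc5 receptors. During gastrulation, when definitive endoderm arises from the streak, cells move and sort by such contacts. Lhx1 encodes a LIM homeodomain transcription factor of the anterior streak and its derivatives.

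Of the 64 genes, 28 had at least 1 probe above background (detection p under 0.01) on 4 or more arrays, with 46 probes in all. The other 36 did not pass this filter and have no test. Among them, 20 had no probe above background on any array, 9 on 1 array at most, 5 on 2 and 2 on 3 (Epha6 and Sema3a). By role, 6 of 7 secreted semaphorins did not pass (Sema3a, Sema3b, Sema3c, Sema3d, Sema3e and Sema3g), nor did 6 of 12 membrane semaphorins (Sema4c, Sema4d, Sema4f, Sema4g, Sema6b and Sema6c) and 6 of 9 plexins (Plxna1, Plxna3, Plxna4, Plxnb1, Plxnb3 and Plxnc1). The neuropilin Nrp2, the ephrins Efna2, Efnb2 and Efnb3, and the receptors Epha4, Epha5, Epha6, Epha8, Epha10, Ephb3 and Ephb6 did not pass either. Slit1, Robo2, Robo4, the netrin Ntn4 and the netrin receptors Dcc, Unc5a and Unc5d complete the 36. Plxna1, a plexin that Sema6d is known to bind, was above background on no array by its 1 probe. Array intensity is compared only within a probe, so no gene's level is set against another's.

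Lhx1 itself was read by 2 probes, whose positions relative to the deleted part are not known here, so they do not check the genotype. By the brighter probe its log2 intensity was 13.67, 13.43, 14.49 and 8.15 in null cultures at day 5 (replicates 1 to 4, the order used throughout), against 14.69, 14.73, 14.80 and 14.39 in wild-type cultures. At day 6 it was 14.03, 9.76, 13.10 and 13.84 in null cultures, against 14.88, 14.34, 14.57 and 14.77 in wild-type cultures. Null day 5 replicate 4 and null day 6 replicate 2 stood apart from the other 6 null cultures. They also had the lowest mean over 11 definitive endoderm markers (8.43 and 8.97, where the other null cultures had 10.42 to 11.23). This pair was chosen from the data, not from a label, and values without it are given for the named genes it moved most. Both lay above all 6 other null cultures in 10 of the 28 guidance genes (35.7%) and below them in 7 (25%), where 12.5% of all genes tested lay above and 10.5% below. Replicate 3 had the fewest probes above background in every group (10734 and 12194 in null cultures at days 5 and 6, and 11207 and 11979 in wild-type cultures, with 13253 to 15453 on the other arrays). Its part in the results was not tested beyond the replicate block and the fits that left out cultures.

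Sema6d was the guidance gene with the largest loss in the null cultures at day 5 and the one that passed the test at both days. It encodes a transmembrane semaphorin that acts as a ligand for plexin-A receptors and can also signal in its own cell. The study itself names Sema6d among the genes misregulated in these null cultures, so its loss here is no independent finding. Its log2 intensity (probe ILMN_2680415) was 5.91, 6.63, 6.93 and 7.06 in null cultures at day 5, against 8.46, 9.47, 9.17 and 9.51 in wild-type cultures. At day 6 it was 8.04, 7.07, 7.92 and 6.65 in null cultures, against 10.01, 8.99, 8.97 and 9.87 in wild-type cultures. Every null culture lay below every wild-type culture of its day, and the highest null value of either day (8.04) lay below the lowest wild-type value (8.46). The probe was above background in 1 of 4 null cultures at day 5 and 3 of 4 at day 6, and in all 8 wild-type cultures. Sema6d averaged 6.63 ± 0.52 in null cultures and 9.15 ± 0.48 in wild-type cultures at day 5 (SD, n = 4 each), a log2 fold change of -2.52 ± 0.37 (SE) with a limma adjusted p of 0.00762. The day 6 means were 7.42 ± 0.67 in null cultures and 9.46 ± 0.56 in wild-type cultures, a log2 fold change of -2.04 ± 0.37 with a limma adjusted p of 0.0148. On the linear scale these gaps were 5.74-fold at day 5 and 4.12-fold at day 6, lower in the null cultures, and they rest partly on values not above background. In bulk RNA, fewer cells of a type and less RNA per cell cannot be told apart. Without the pair of null cultures that stood apart, the log2 fold changes were -2.66 (limma adjusted p 0.0168) and -1.93 (0.0326).

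The array carries 4 other Sema6d probes, and none passed the filter: 2 were above background on no array and 2 on 1 array each. The loss therefore rests on a single probe. The call was also lost at day 6 when wild-type day 6 replicate 1 was left out (log2 fold change -1.86, limma adjusted p 0.0649) or wild-type day 6 replicate 4 (-1.90, 0.0615), and without null day 6 replicates 3 and 4, whose labels conflict (-1.91, 0.111). With the intensity of Eif2s3y, a Y-linked gene, added to the model, Sema6d missed the threshold at both days (limma adjusted p 0.0618 at day 5 and 0.0569 at day 6) at log2 fold changes of -2.52 and -2.04.

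Promoter windows of Sema6d and of Ephb1, the only other guidance gene that passed the test, are shown to give the sequence at the starts of the genes that carry the result. They come from RefSeq (build GRCm38.p6) and run from 250 bases before to 50 bases after an annotated start. Sema6d has 2 windows on the plus strand, at chr2:124089719-124090018 and chr2:124653331-124653630, and Ephb1 has 1 on the minus strand, at chr9:102354644-102354943. Capitals mark TAAT, the core that many homeodomain proteins bind, read on either strand (as TAAT or ATTA).
Sema6d upstream window: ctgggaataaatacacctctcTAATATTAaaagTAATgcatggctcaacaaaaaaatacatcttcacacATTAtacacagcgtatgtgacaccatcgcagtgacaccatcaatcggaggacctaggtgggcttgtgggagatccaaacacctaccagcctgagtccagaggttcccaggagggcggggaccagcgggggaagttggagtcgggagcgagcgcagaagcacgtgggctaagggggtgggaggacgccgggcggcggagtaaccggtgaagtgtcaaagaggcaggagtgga
Sema6d downstream window: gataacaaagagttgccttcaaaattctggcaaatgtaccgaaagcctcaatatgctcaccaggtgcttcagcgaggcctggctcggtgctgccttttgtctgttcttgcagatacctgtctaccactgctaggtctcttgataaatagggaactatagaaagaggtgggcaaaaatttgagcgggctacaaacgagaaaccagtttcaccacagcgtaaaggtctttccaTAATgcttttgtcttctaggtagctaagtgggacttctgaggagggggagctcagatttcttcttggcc
Ephb1 window: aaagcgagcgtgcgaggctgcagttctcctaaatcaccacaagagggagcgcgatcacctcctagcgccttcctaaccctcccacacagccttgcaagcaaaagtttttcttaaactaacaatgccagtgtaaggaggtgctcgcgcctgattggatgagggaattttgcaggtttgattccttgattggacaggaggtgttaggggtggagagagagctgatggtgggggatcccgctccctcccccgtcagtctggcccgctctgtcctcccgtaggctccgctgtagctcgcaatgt
The upstream Sema6d window holds 4 TAAT matches on either strand (overlapping matches counted apart), the downstream window holds 1 and the Ephb1 window holds 0. A TAAT match occurs in 58.0% of all 32851 promoter windows of this length and in 30 of the 71 windows (42.3%) of the 55 guidance genes on the array that have one. The longer motif TAATTA, which reads the same on both strands, is in none of the 3 windows shown and in 5.29% of all windows. A match describes the letters of the window only, and the lack of one says nothing of the factor.

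Ephb1, a receptor tyrosine kinase for B-class ephrins, lay lower in null than in wild-type cultures on each day, past the test at day 6 only. Its log2 intensity (probe ILMN_2672903) was 6.73, 6.69, 6.28 and 7.98 in null cultures at day 5, against 8.14, 8.97, 8.37 and 9.16 in wild-type cultures. The day 6 values were 6.06, 8.51, 5.82 and 6.48 in null cultures, against 8.61, 8.94, 9.59 and 8.74 in wild-type cultures. The genotypes did not overlap at either day, but the gap was only 0.16 at day 5 and 0.10 at day 6, because the pair of null cultures that stood apart reached 7.98 and 8.51. These were also the only null cultures in which the probe was above background, while all 8 wild-type cultures passed. The log2 fold change was -1.74 ± 0.51 (SE, n = 4 each) at day 5 (limma adjusted p 0.163) and -2.25 ± 0.51 at day 6 (0.0434), or 3.34-fold and 4.77-fold lower in the null cultures. Without the pair it was -2.09 (limma adjusted p 0.0127) at day 5 and -2.85 (0.000945) at day 6. The day 6 call was lost in 11 of 16 fits that each left out a single culture (limma adjusted p 0.051 to 0.122), with fold changes still negative. It was -1.69 (limma adjusted p 0.311) without null day 6 replicates 3 and 4 and -2.17 (0.137) with Eif2s3y in the model. With the replicate number as a block the day 6 call was lost as well (limma adjusted p 0.0612 over all samples and 0.0539 within each day). The other 3 Ephb1 probes were above background on no array.

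Across the 28 genes, 1 passed the test as lower at day 5 (Sema6d), where 54 of 10939 genes tested were lower (0.494%), and 0 passed as higher, where 7 genes were (0.064%). At day 6, 2 passed as lower (Sema6d and Ephb1; 109 of all genes, 0.996%) and 0 as higher (63 of all genes, 0.576%). Because the study had already named Sema6d as misregulated, its part in the counts of both days was known beforehand. By an unadjusted limma p under 0.05, 8 of the 28 differed at day 5, against 11.9% of all genes, and 10 at day 6, against 13.9%. With each of the 46 probes tested on its own, 1 was called at day 5 (0.41% of 15593 probes) and 3 at day 6 (1.24%). The probes called at day 6 were those of Sema6d and Ephb1 and 1 of Epha7. The median log2 fold change of the 28 genes was -0.08 at day 5 and -0.06 at day 6, beside 0.01 and 0.00 over all genes. The plot of fold changes by role shows single members far from zero beside relatives close to it.

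**Figure D1:**
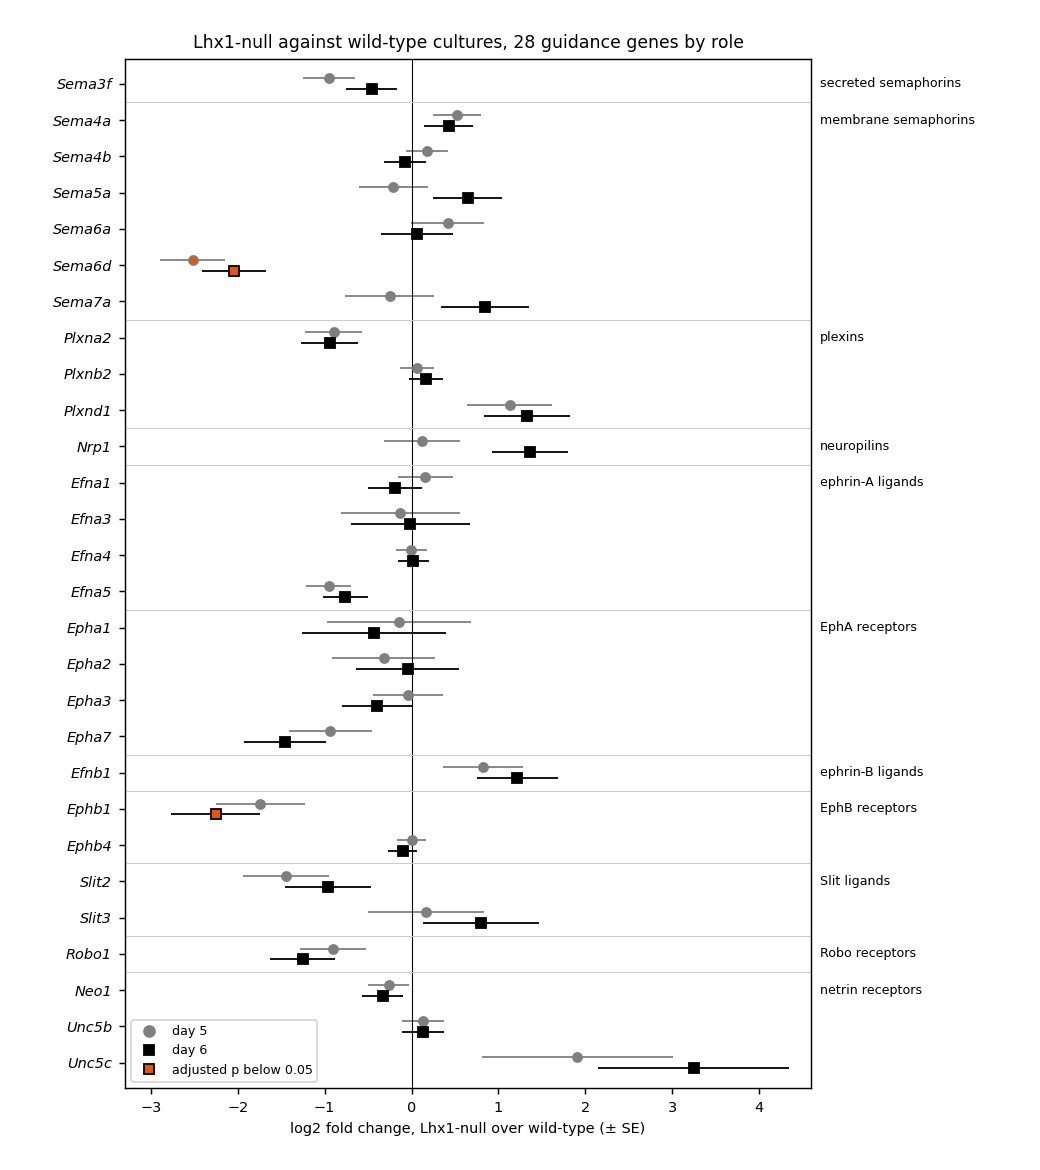
Log2 fold change of Lhx1-null over wild-type cultures (x axis) with its standard error for the 28 guidance genes that passed the filter (y axis, grouped by role), at day 5 (grey circles) and day 6 (black squares), n = 4 cultures per group. Orange marks an adjusted p below 0.05, reached by Sema6d at both days (-2.52 and -2.04) and Ephb1 at day 6 (-2.25), while Unc5c has the widest errors.

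Counted by overlap alone, all null cultures lay below all wild-type cultures in 2 of the 28 genes at day 5 (3.43% of all genes), in 5 at day 6 (5.67%) and in 2 at both days (1.6%). The 2 were Sema6d and Ephb1, and day 6 added Efna5, Epha7 and Plxna2. All null cultures lay above all wild-type cultures in 0 genes at day 5 (2.08% of all genes), in 3 at day 6 (Nrp1, Plxnd1 and Unc5c; 3.46%) and in 0 at both days (0.539%). Unc5c passed the filter only through null cultures, and Ephb1 and Epha7 mainly through wild-type cultures, so their places in these counts are partly set by the filter. The plot of single cultures shows the genes without overlap, with the named members of the other families.

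**Figure D2:**
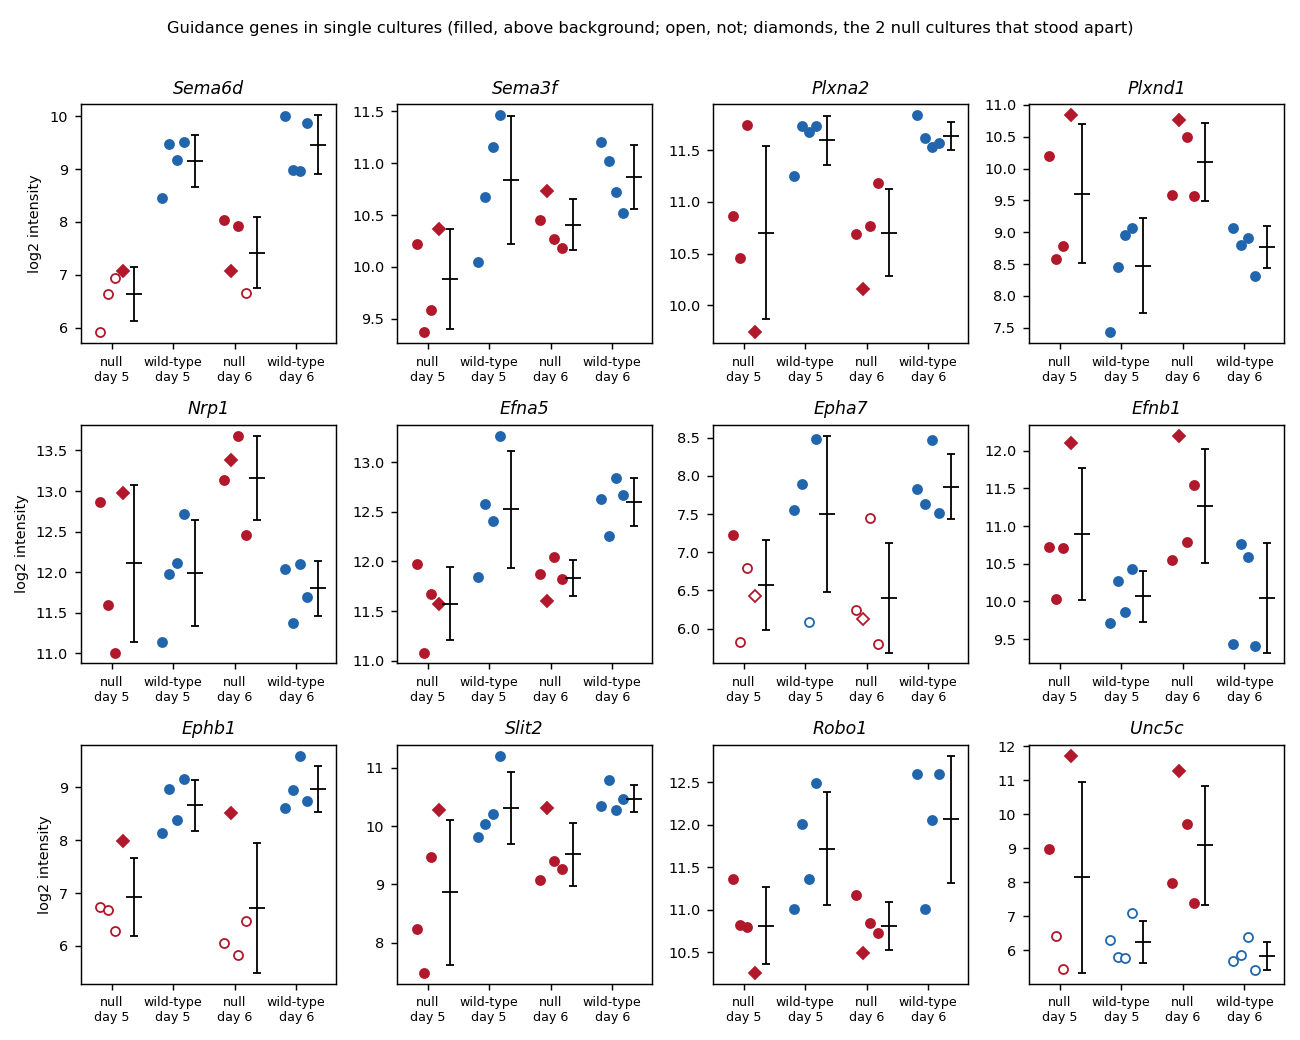
Log2 intensity (y axes, scaled per gene) of 12 guidance genes in each culture, by group from left to right (Lhx1-null day 5, wild-type day 5, Lhx1-null day 6, wild-type day 6). Points are cultures in replicate order, open where the probe was not above background, diamonds are the 2 null cultures that stood apart, and bars are mean ± SD (n = 4); Sema6d and Ephb1 show no overlap at either day, and Unc5c is open in all 8 wild-type cultures.

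Among the semaphorins, Sema3f was the single secreted member that passed the filter. It encodes a repulsive cue that signals through Nrp2, which did not pass. Its log2 intensity was 10.22, 9.37, 9.58 and 10.37 in null cultures at day 5, against 10.05, 10.68, 11.15 and 11.46 in wild-type cultures. The groups overlapped through wild-type replicate 1. At day 6 the null cultures lay at 10.18 to 10.73 and the wild-type cultures at 10.52 to 11.20. The log2 fold change was -0.95 ± 0.30 at day 5 (limma adjusted p 0.185) and -0.46 ± 0.30 at day 6 (0.55), and another Sema3f probe gave -0.81 and -0.30. Without wild-type day 5 replicate 1 the day 5 value was -1.21 and passed the test (limma adjusted p 0.0431). The other membrane semaphorins (Sema4a, Sema4b, Sema5a, Sema6a and Sema7a) had log2 fold changes of -0.25 to 0.52 at day 5 and -0.07 to 0.85 at day 6, and none passed the test. Sema6a, of the same class as Sema6d, had 0.42 and 0.06; the difference between the genes was not tested.

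The 3 plexins that passed the filter went different ways. Plxna2, a receptor for class 6 semaphorins and a partner of neuropilins, measured 10.87, 10.46, 11.74 and 9.74 in null cultures at day 5, against 11.25, 11.73, 11.67 and 11.73 in wild-type cultures. At day 6 it measured 10.69, 10.16, 10.76 and 11.19 in null cultures, against 11.84, 11.62, 11.54 and 11.57 in wild-type cultures. The null cultures lay wholly below at day 6, whereas at day 5 null replicate 3 was the highest of all 8. This gave log2 fold changes of -0.89 ± 0.33 at day 5 (limma adjusted p 0.27) and -0.94 ± 0.33 at day 6 (0.183), or -0.57 and -0.76 without the pair of null cultures that stood apart. Plxnd1, a receptor for Sema3e known from endothelial cells and singled out here after its values were seen, lay at 9.56 to 10.76 in null cultures and 8.31 to 9.07 in wild-type cultures at day 6. Its log2 fold change was 1.13 ± 0.49 at day 5 (limma adjusted p 0.376) and 1.33 ± 0.49 at day 6 (0.211), or 0.72 and 1.11 without the pair. Plxnb2, a receptor for class 4 semaphorins, had log2 fold changes of 0.06 and 0.17.

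Nrp1, a co-receptor for secreted semaphorins and for VEGF, separated the genotypes at day 6 and not at day 5. Its log2 intensity was 12.86, 11.59, 11.01 and 12.98 in null cultures at day 5, against 11.14, 11.98, 12.12 and 12.71 in wild-type cultures. By day 6 it was 13.14, 13.38, 13.68 and 12.46 in null cultures, against 12.03, 11.37, 12.10 and 11.70 in wild-type cultures. The groups were mixed at day 5 only. The log2 fold change was 0.12 ± 0.43 at day 5 (limma adjusted p 0.947) and 1.36 ± 0.43 at day 6 (0.142), so the day 6 gap did not pass the test. All 3 Nrp1 probes gave 1.25 to 1.36 at day 6. The difference between the 2 days' fold changes was 1.24 ± 0.61 (unadjusted limma p 0.0622, adjusted p 1). The day 5 value changed sign when certain cultures were left out, and at -0.17 to 0.49 it has no settled direction.

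Of the A-class ephrins, which are anchored to the membrane by lipid and bind EphA receptors, Efna5 had negative log2 fold changes at both days. It measured 11.97, 11.08, 11.67 and 11.57 in null cultures at day 5, against 11.85, 12.58, 12.41 and 13.27 in wild-type cultures. At day 6 the values were 11.87, 11.60, 12.05 and 11.82 in null cultures, against 12.63, 12.26, 12.84 and 12.67 in wild-type cultures. Only the day 6 groups were free of overlap. Its log2 fold change was -0.95 ± 0.26 at day 5 (limma adjusted p 0.126) and -0.76 ± 0.26 at day 6 (0.172), neither past the test, and a dimmer probe gave -1.10 and -0.64. Leaving out wild-type day 5 replicate 1 brought the day 5 value to -1.18 (limma adjusted p 0.0278). Efna1, Efna3 and Efna4 had log2 fold changes of -0.13 to 0.16 at day 5 and -0.19 to 0.02 at day 6.

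Epha7, an EphA receptor of the early nervous system and other tissues, was near background throughout and passed the filter mainly through wild-type cultures. Its log2 intensity was 7.23, 5.83, 6.80 and 6.43 in null cultures at day 5, against 7.56, 7.89, 6.08 and 8.49 in wild-type cultures. The day 6 values were 6.24, 6.13, 7.44 and 5.80 in null cultures, against 7.83, 7.63, 8.47 and 7.51 in wild-type cultures. No null culture was above background at day 6 and all 4 wild-type cultures were, which makes it at least 1.61-fold lower in null cultures, the wild-type mean being set against the background level (measured means 6.40 ± 0.72 in null and 7.86 ± 0.43 in wild-type cultures, SD, n = 4). The measured log2 fold change was -0.94 ± 0.48 at day 5 (limma adjusted p 0.465) and -1.46 ± 0.48 at day 6 (0.153). Another, dimmer probe (ILMN_1228560) gave -0.98 and -1.57 and passed the test at day 6 where each probe was tested on its own (limma adjusted p 0.0221), and another gave -0.57 and -1.54. The 3 probes agree in direction, and the call at day 6 depends on which is read. Epha1, Epha2 and Epha3 had log2 fold changes of -0.32 to -0.04 at day 5 and -0.43 to -0.05 at day 6. The dimmer Epha1 probes that passed the filter gave 0.05 to 0.33 at day 5 and -0.28 to 0.21 at day 6, so the sign for Epha1 depends on the probe.

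On the B side, Efnb1, the membrane-spanning ephrin that EphB receptors bind, had positive log2 fold changes where Ephb1 had negative ones. It measured 10.72, 10.03, 10.71 and 12.11 in null cultures at day 5, against 9.71, 10.27, 9.86 and 10.43 in wild-type cultures. Its day 6 values were 10.54, 12.20, 10.78 and 11.54 in null cultures, against 9.44, 10.76, 10.59 and 9.41 in wild-type cultures. The groups overlapped at both days, and the pair of null cultures that stood apart held the highest value of each day. Its log2 fold change was 0.82 ± 0.46 at day 5 (limma adjusted p 0.522) and 1.22 ± 0.46 at day 6 (0.223), and 0.42 and 0.91 without the pair. Ephb4, the EphB receptor known from veins, had log2 fold changes of 0.00 ± 0.17 and -0.10 ± 0.17.

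Slit2 and Robo1, a secreted repellent and its receptor, both had negative log2 fold changes, and neither passed the test. Slit2 measured 8.23, 7.48, 9.47 and 10.27 in null cultures at day 5, against 9.81, 10.03, 10.21 and 11.21 in wild-type cultures. Its day 6 values were 9.08, 10.31, 9.40 and 9.26 in null cultures, against 10.35, 10.79, 10.28 and 10.47 in wild-type cultures. Overlap at each day came from the null culture that stood apart, which reached 10.27 and 10.31. The log2 fold change was -1.45 ± 0.50 at day 5 (limma adjusted p 0.232) and -0.96 ± 0.50 at day 6 (0.42), or -1.92 (0.0594) and -1.22 (0.172) without the pair. A dimmer Slit2 probe, above background on 4 arrays, gave smaller values of -0.46 and -0.30. Slit3 had log2 fold changes of 0.17 and 0.80.

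Robo1 measured 11.37, 10.82, 10.80 and 10.26 in null cultures at day 5, against 11.01, 12.01, 11.36 and 12.49 in wild-type cultures. On day 6 Robo1 measured 11.18, 10.49, 10.84 and 10.72 in null cultures, against 12.59, 11.01, 12.05 and 12.60 in wild-type cultures. Wild-type day 6 replicate 2 lay among the null cultures and the other wild-type cultures lay above them all. This gave a log2 fold change of -0.90 ± 0.38 at day 5 (limma adjusted p 0.348) and -1.25 ± 0.38 at day 6 (0.116), and a dimmer probe gave -0.57 and -0.98. Without wild-type day 6 replicate 2 the day 6 value was -1.60 and passed the test (limma adjusted p 0.0219).

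Unc5c, a netrin receptor that mediates repulsion, was above background in null cultures only and varied widely among them. It measured 8.99, 6.42, 5.46 and 11.72 in null cultures at day 5, against 6.29, 5.80, 5.76 and 7.10 in wild-type cultures. Day 6 brought 7.98, 11.27, 9.71 and 7.39 in null cultures, against 5.67, 5.85, 6.40 and 5.43 in wild-type cultures. All 4 null cultures were above background at day 6 and 2 of 4 at day 5, while no wild-type culture was at either day, so Unc5c passed the filter only through the null cultures. At day 5 the measured means were 8.15 ± 2.81 in null and 6.24 ± 0.63 in wild-type cultures (SD, n = 4). The null mean was 1.63-fold over the background level there. That is no lower bound, because the 2 null values not above background (6.42 and 5.46) enter it and lay within or below the wild-type range. At day 6 the null mean was at least 3.70-fold over the background level, with means of 9.09 ± 1.75 and 5.84 ± 0.41 (SD, n = 4). The measured log2 fold change was 1.91 ± 1.10 at day 5 (limma adjusted p 0.532) and 3.25 ± 1.10 at day 6 (0.17), and neither passed the test. Another Unc5c probe gave 2.15 and 2.90. The pair that stood apart held the highest null values, 11.72 and 11.27, and without it the log2 fold changes were 0.72 (limma adjusted p 0.705) and 2.52 (0.114). The relatives Unc5b (0.13 and 0.13) and Neo1 (-0.26 and -0.33), a receptor for netrins and repulsive guidance molecules, lay near zero.

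**Figure D3:**
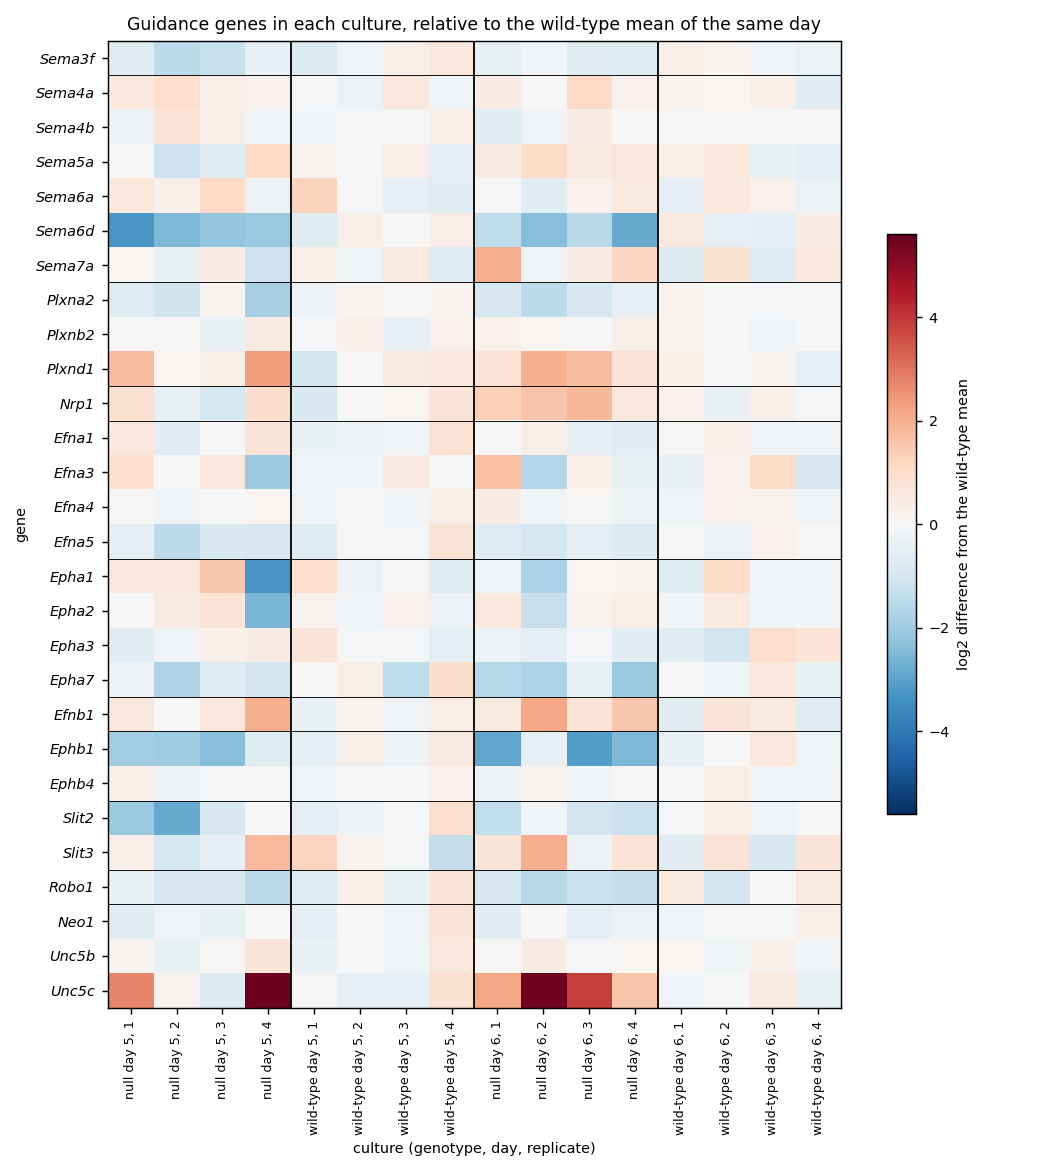
Log2 difference from the wild-type mean of the same day (colour, red higher and blue lower) for the 28 guidance genes (rows, by role) in the 16 cultures (columns, Lhx1-null left of wild-type at each day). Sema6d is blue in all 8 null cultures. Among the null cultures, Ephb1 is palest in the 2 that stood apart, and Unc5c is darkest red in the same 2.

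The null cultures were not alike, as the heat map of single cultures shows. The pair that stood apart lay above all 6 other null cultures in Efna1, Efnb1, Ephb1, Neo1, Plxnd1, Sema5a, Slit2, Slit3, Unc5b and Unc5c. It lay below them in Efna3, Epha1, Epha2, Plxna2, Robo1, Sema6a and Sema7a. Epha1 and Epha2, receptors of epithelial cells, were among those below. Epha1 was 6.14 and 7.21 in the pair, with 8.77 to 10.99 in the remaining null cultures and 8.31 to 10.40 in wild-type cultures. Epha2 was 6.41 and 7.44 in the pair, with 8.93 to 9.75 in the remaining null cultures and 8.50 to 9.29 in wild-type cultures. Sema6d lay within the range of the other null cultures (7.06 and 7.07, against 5.91 to 8.04).

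Culture time was compared within each genotype, with all cultures taken as independent. By the study's methods the same lines seem to have been sampled at each day. The labels do not link them, so a pairing by clone could not be used. From the model over all 16 arrays, 0 of the 28 genes passed the test between day 6 and day 5 in null cultures and 0 in wild-type cultures, where 0% of all genes did in either. By an unadjusted limma p under 0.05, 1 gene differed in null cultures (4.07% of all genes) and 0 in wild-type cultures (1.22%). The 1 gene was Nrp1, higher at day 6 by 1.05 ± 0.43 (unadjusted limma p 0.0288, adjusted p 1). The test of the difference between the 2 days' null effects called 0 of the 28 genes (0% of all genes), and 0 by an unadjusted p under 0.05 (0.969%). For Sema6d that difference was 0.48 ± 0.53 (unadjusted limma p 0.379) and for Ephb1 -0.51 ± 0.73 (0.493).

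Other parts of guidance signalling were read from a pair of lists. Of 26 other guidance ligands and co-receptors, 15 passed the filter: 1 was called lower at day 5 (0.494% of all genes) and 1 higher at day 6 (0.576%), and their median log2 fold change was -0.10 at day 5 and -0.04 at day 6. Flt1, a VEGF receptor that also traps the ligand, lay at 11.08 to 11.63 in null cultures and 12.61 to 13.66 in wild-type cultures at day 5 (log2 fold change -1.89 ± 0.33, limma adjusted p 0.0243), and at 11.17 to 12.90 and 13.12 to 13.86 at day 6 (-1.28 ± 0.33, 0.0716). Its groups did not overlap at either day. Ntn3, a netrin, lay at 8.80 to 9.37 in null cultures and 7.80 to 8.24 in wild-type cultures at day 6 (1.10 ± 0.21, limma adjusted p 0.016), after 0.45 ± 0.21 at day 5 (0.415). Of 36 intracellular effectors, 24 passed the filter: 1 was called lower at day 5 (0.494% of all genes) and 1 higher at day 6 (0.576%), and the medians were -0.01 and 0.05. Dpysl3, a collapsin response mediator that relays semaphorin signals to the cytoskeleton, was lower in null cultures at day 5 (-1.88 ± 0.36, limma adjusted p 0.0357; day 6 -1.06, 0.162). Tiam1, an exchange factor for Rac, was higher in null cultures at day 6 (1.26 ± 0.21, limma adjusted p 0.0103; day 5 0.70, 0.166). Leaving out 1 culture ended the call of Flt1 in 6 of 16 cases, of Dpysl3 in 8 and of Ntn3 in 3, and that of Tiam1 in none.

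Some lists of cell type markers separated the genotypes and others did not, as the plot of list means shows. Definitive endoderm markers passed the filter in 11 of 12 cases (all but Epcam). The study itself reports lower Sox17, Foxa2, Hhex, Cer1 and Trh in Lhx1-null cultures. The list is thus no independent check of cell type in the null cultures. The mean of the 11, though not each marker, lay lower in every null culture than in any wild-type culture of its day. It was 8.43 to 10.74 in null cultures and 11.44 to 12.19 in wild-type cultures at day 5, and 8.97 to 11.23 and 11.78 to 12.30 at day 6. The median log2 fold change was -2.11 at day 5, where Sox17 and Hhex were called lower, and -1.64 at day 6, where Hhex and Trh were. Cxcr4, Eomes, Gata6 and Cdh1 overlapped between genotypes at both days, and Eomes had a positive log2 fold change at day 6 (0.25). Leaving out 1 culture ended the call of Sox17 in 11 of 16 cases and of Trh in 13, and those of Hhex in none. These values stand beside the negative log2 fold changes of Sema6d, Sema3f, Ephb1, Efna5, Epha7, Plxna2, Slit2 and Robo1, and their part in those results was not tested. Among null cultures these guidance genes did not follow the endoderm means alike. In the pair that stood apart, which had the lowest means, Plxna2 and Robo1 lay below the other null cultures. Ephb1 and Slit2 lay above them, and Sema6d, Sema3f, Efna5 and Epha7 lay within their range.

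Lateral plate and extraembryonic mesoderm markers passed the filter in 6 of the 9 cases on the array (not Hand1, Hand2 or Msx2). Their mean was 9.06 to 11.68 in null cultures and 8.08 to 9.55 in wild-type cultures at day 5, and 10.42 to 11.34 and 8.70 to 9.37 at day 6. Bmp4, Msx1 and Tbx3 were called higher at day 6, while Isl1 had negative log2 fold changes that did not pass the test (-0.78 at day 5 and -1.60 at day 6). The pair that stood apart had the highest means of its day (11.68 and 11.34). Foxf1 was above background in no wild-type culture. Endothelium and blood markers passed the filter in 4 of 13 cases, without the defining markers Pecam1, Cdh5, Tie1, Cd34 and Emcn, and Lmo2 was called higher at day 6. Their mean was 8.45 to 10.66 in null cultures and 7.37 to 8.19 in wild-type cultures at day 6. Gata1 of this list had a log2 fold change of -0.09 at day 6. Flt1, the VEGF receptor read in another list, had -1.89 at day 5 and -1.28 at day 6. Mesenchyme markers passed in 4 of 10 cases, without Col1a1, Col1a2, Col3a1, Postn, Dcn and Lum, and at day 6 Vim and Cdh11 were called higher and the mean was 9.20 to 10.07 in null cultures and 8.03 to 8.80 in wild-type cultures. Of 5 streak and nascent mesoderm markers, Pdgfra was called higher at day 6, with means of 7.94 to 10.23 in null cultures and 7.50 to 8.86 in wild-type cultures. The means of this list overlapped between genotypes at both days. The pair that stood apart had its lowest null means (7.33 and 7.94, where the other null cultures had 9.41 to 10.51). Leaving out 1 culture ended the call of Vim in 9 of 16 cases, of Cdh11 in 6, of Pdgfra in 10 and of Lmo2 in 1, and those of Bmp4, Msx1 and Tbx3 in none. These lists stand beside the positive day 6 log2 fold changes of Nrp1, Plxnd1, Efnb1 and Unc5c, and their part there was not tested.

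The means of the remaining lists also overlapped between genotypes at both days. The 2 of 8 neural markers that passed the filter had means of 7.80 to 8.24 in null cultures and 8.09 to 8.71 in wild-type cultures at day 6. Map2 was called lower then (7.36 to 7.48 in null cultures and 7.93 to 9.30 in wild-type cultures, with the call lost in 3 of 16 leave-outs), while Nes had a log2 fold change of 0.57 that did not pass the test. The 7 pluripotent markers had means of 8.94 to 10.87 in null cultures and 7.80 to 10.32 in wild-type cultures at day 6, and the 5 visceral and parietal endoderm markers 8.46 to 10.19 in null cultures and 6.78 to 10.47 in wild-type cultures, with 0 called in either list.

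**Figure D4:**
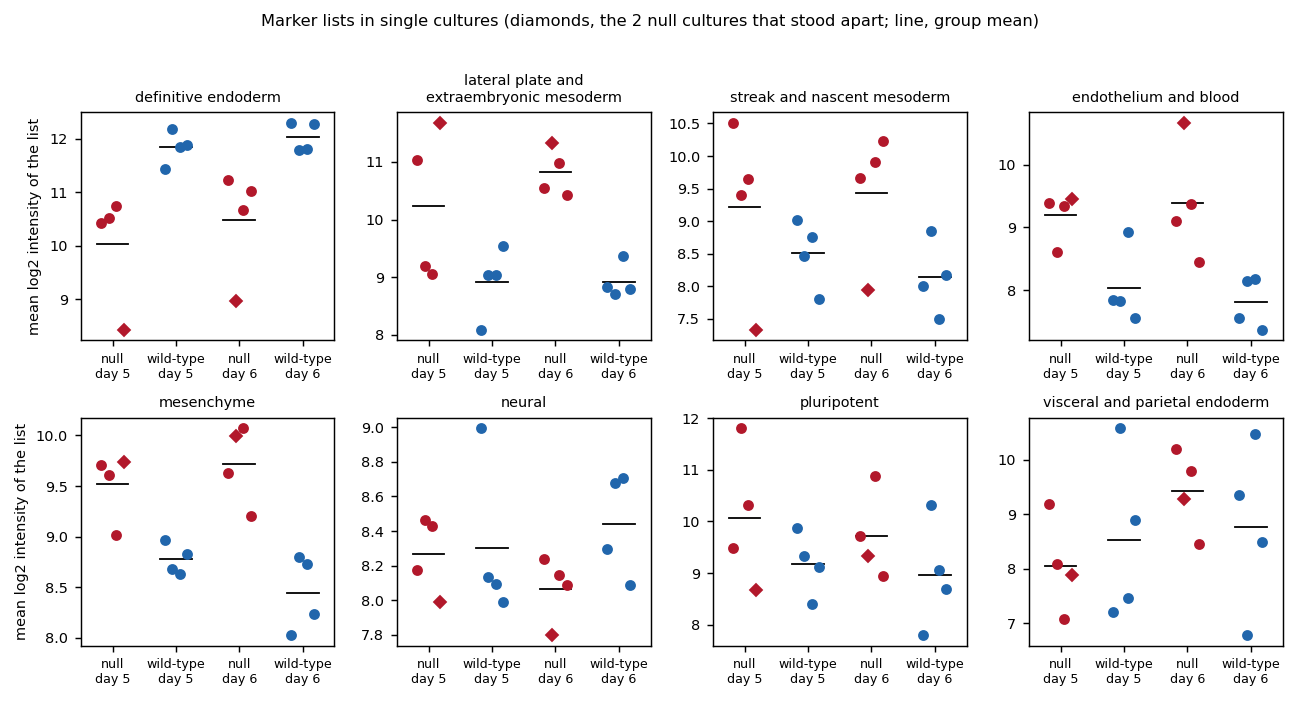
Mean log2 intensity (y axes, scaled per list) over the markers of 8 cell types that passed the filter, in each culture and group (Lhx1-null left of wild-type at each day), with group means as lines. The 2 null cultures that stood apart (diamonds) have the lowest definitive endoderm means (8.43 and 8.97) and the highest lateral plate and extraembryonic mesoderm means of their day (11.68 and 11.34).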

How the data were processed

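The authors deposited raw linear intensity values per probe, neither normalized nor background-corrected, for 16 arrays, with a detection p-value for each, read out with GenomeStudio (version not stated); a second table of rank-invariant normalized intensity values that the authors also deposited served as an alternative. In R 4.3.3 with limma 3.58.1, neqc corrected the background (offset 16), quantile normalized the arrays and took log2. A probe stayed in if 4 or more arrays had a detection p below 0.01 (15593 of 45281 did), and the brightest kept probe stood for each symbol, which left 10939 genes, 1995 of them probes without a symbol. Each array had 10734 to 15453 probes above background. The number of arrays limits the precision.

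A single limma model of the 4 groups, without a replicate block, gave 5 comparisons. The labels state no pairing. Deviations of same-numbered null and wild-type cultures from their group means correlated at 0.139 to 0.36 at day 5, where other numbers gave -0.351 to 0.302. At day 6 same-numbered cultures correlated at -0.0439 to 0.441, and other numbers at -0.399 to 0.247. These ranges overlap and do not settle a pairing, so blocked values are given where they change a call. P-values were adjusted over all genes by Benjamini-Hochberg, and called means an adjusted p below 0.05. A bound against background sets the brighter group's mean against the higher, on each array, of the lowest log2 intensity among probes above background and the dim probe's own. It is a lower bound only where every culture of the brighter group was above background. The fit was tested on simulated data.

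Genes named are those called in any comparison, Sema6d, those without overlap at both days and, in other roles, the member with the smallest p at day 6. All 169 probes of the guidance genes matched RefSeq by Entrez ID, with 0 symbols changed. The members and lists were chosen with earlier results of these data known. Alternatives changed the background correction, offset, normalization, filter, probe choice, array weights, replicate block, samples and a covariate, and left out each culture.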

Additional observations from a re-analysis of the deposited data

Results flagged for a closer look

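In 112 groups of 4 cultures (28 guidance genes in 4 groups), 4 held a culture far from the other 3 by Dixon's ratio, the gap to the nearest culture over the range. Chance gives about 1 in 20 groups. Efna3 was highest in wild-type day 5 replicate 3 at a log2 intensity of 7.96, with the others at 7.33 to 7.42 (ratio 0.858). That reading was not above background on its array, where the lowest value above background was 8.10, while the others were above background. Sema4b was highest in wild-type day 5 replicate 4 at 11.55, with the others at 11.01 to 11.09 (0.839). Epha2 was highest in wild-type day 6 replicate 2 at 9.29, with the others at 8.50 to 8.61 (0.866). Plxna2 was lowest in wild-type day 5 replicate 1 at 11.25, with the others at 11.67 to 11.73 (0.878). All 4 are wild-type cultures.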

How the results depend on the processing

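Of 13 alternatives, 11 kept the count of 1 guidance gene called at day 5. It was 2 without the 2 null cultures that stood apart (Sema6d and Ephb1) and 0 with Eif2s3y (a Y-linked gene) in the model. At day 6, where 2 were called, 6 alternatives kept the count within 1.5 times. It was 1 (Sema6d) without the filter, with the samples of 1 day only, and with the replicate number as a block over all samples or within each day. It was 0 without null day 6 replicates 3 and 4, whose labels conflict, and 0 with Eif2s3y in the model. Array weights gave 8 (Efna5, Epha7, Ephb1, Nrp1, Plxna2, Robo1, Sema6d and Unc5c). Leaving out each culture gave 1 to 3 at day 5 and 0 to 2 at day 6. The other 3 comparisons called 0 throughout. The cause of these shifts was not tested.

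With the replicate block over all samples, Ephb1 at day 6 had a limma adjusted p of 0.0612, and Sema6d had 0.0481 at day 5 and 0.0476 at day 6. Same-numbered null and wild-type cultures correlated at 0.139 to 0.36 at day 5 and -0.0439 to 0.441 at day 6, and 2 and 1 of 4 correlated best with their own number. Every same-numbered pair thus passed 0.1 at day 5 and not at day 6. Cultures of other numbers reached 0.302 at day 5 and 0.247 at day 6, so these correlations do not settle a pairing. With the block within each day, Sema6d had 0.0133 at day 5 and 0.0212 at day 6, and Ephb1 0.137 and 0.0539, so that of the guidance genes' calls the block ended that of Ephb1.

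Over 12 alternatives, Sema6d kept its direction, with limma adjusted p-values of 0.00601 to 0.0618 at day 5 and 0.00245 to 0.111 at day 6. It missed the threshold with Eif2s3y in the model (0.0618 and 0.0569) and without the 2 conflicting samples at day 6 (0.111). Ephb1 at day 6 ranged from 0.000945 to 0.311 and lost its call in 6 of 12 alternatives. It kept it only without null day 5 replicates 3 or 4, wild-type day 5 replicates 1 or 4, or null day 6 replicate 2, among the 16 leave-outs. Nrp1 at day 5 changed sign: -0.17 without the 2 null cultures that stood apart, and -0.13, -0.17 and -0.16 without null day 5 replicate 1, null day 5 replicate 4 and wild-type day 5 replicate 1, the leave-outs giving -0.17 to 0.49. Of 1512 values for 27 named genes, 1335 kept direction and side of the threshold, 141 lost a call, 32 gained one and 4 changed sign.

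Signal over background limits Sema6d, Ephb1, Epha7 and Unc5c, whose lower group is partly or wholly below it, and 36 guidance genes have no test here.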
